A study of Homo sapiens with 6 samples.

Results

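The 10 genes described here are replication-dependent histone genes: HIST1H2AC, HIST1H2AG and HIST2H2AC encode histone H2A, HIST1H2BD, HIST1H2BJ, HIST1H2BK and HIST2H2BE encode H2B, HIST1H4C and HIST1H4H encode H4, and HIST1H1C encodes the linker histone H1.2. They were taken by gene name from a table of 63677 gene identifiers, in which 79 other symbols carry names of the same class, 65 of them without the marks of a pseudogene. The names sit on 12 identifiers, because HIST2H2BE and HIST2H2AC each have a second one (ENSG00000264719 and ENSG00000263521) that is at 0 counts in all 6 samples. No member was otherwise too low to test: 10 of 10 passed the filter on low counts through their main identifier. The members were selected on having reads in these libraries, with results of this comparison known, so the size and direction of their own change are given as a description, with no p-value. They include the 3 replication-dependent histone symbols with the most counts, HIST1H2BK, HIST1H2AG and HIST2H2BE, but are no clean cut by level. HIST3H2A, the fourth, is not among them and HIST1H4H, at rank 16, is.

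The samples were RPMI-8402 cells, a human T cell acute lymphoblastic leukaemia line, that stably carried Cas9, the nuclease that cuts DNA where a guide RNA leads it. The 3 control samples received DMSO, the solvent, and the 3 treated samples received doxycycline, which switched on guide RNAs directed at MYC, for 72 h. Every sample carried Cas9 and grew in medium with tetracycline-free serum. Doxycycline without guides, the dose, and whether the cells were 1 clone are not given in the sources used here. Guides and drug therefore cannot be told apart. The labels do not say that replicates came from separate cultures. The p-values then cover the spread among these 6 samples, and that spread may be technical.

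Most histone protein that packages new DNA comes from replication-dependent genes, which lie in clusters, have no introns in their usual form and are transcribed mainly in S phase. Their usual mRNA ends in a short stem-loop rather than a poly(A) tail. SLBP binds that stem-loop, the U7 small nuclear ribonucleoprotein guides the cut behind it, and the mRNA is degraded when DNA synthesis stops. Many of these genes also carry polyadenylation signals further downstream, and cells that leave the cycle are known to make longer, polyadenylated histone mRNAs from some of them. Counts per gene do not separate the 2 kinds of 3′ end, and a step that picked polyadenylated RNA is not given in the sources used here. Whether the reads below came from polyadenylated RNA was therefore not tested.

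The stem-loop was looked for because it marks the usual 3′ end of these mRNAs. The letters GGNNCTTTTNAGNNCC with 6 paired bases in the stem were searched on the transcript strand in GENCODE 29 and occur in 42 of 58676 genes, or 0.0716%. They occur in 5 of the 10 members, and the stem-loop is shown in capitals with 5 flanking bases on each side, beside that of HIST1H2BL, a histone gene that is not a member and that fell.
HIST2H2BE: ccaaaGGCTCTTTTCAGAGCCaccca
HIST1H2AG: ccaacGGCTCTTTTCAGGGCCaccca
HIST1H4H: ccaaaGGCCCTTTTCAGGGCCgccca
HIST1H2AC: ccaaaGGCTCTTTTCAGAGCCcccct
HIST1H2BD: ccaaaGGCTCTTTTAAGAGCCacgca
HIST1H2BL: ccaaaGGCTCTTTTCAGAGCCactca

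The annotated transcripts of HIST2H2BE, HIST1H2AG, HIST1H4H and HIST1H2AC run on for 1729, 1761, 1655 and 1128 bases behind this element. In HIST1H2BD and HIST1H2BL the transcript that holds it ends 39 and 40 bases behind. A polyadenylation signal, AATAAA or ATTAAA, lies within the last 50 bases of the longest transcript of 6 members: HIST2H2BE, HIST1H2AG, HIST1H4H, HIST1H2BJ, HIST1H2AC and HIST1H2BD. For HIST2H2AC, HIST1H2BK and HIST1H1C, GENCODE 29 holds the coding part alone (390, 381 and 642 bases), so neither element could appear there.

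Several H2A and H2B genes are transcribed away from each other from a common promoter, and 2 such pairs lie among the members. The stretch between their starts, and the promoter of HIST1H2BK, the member with the most counts, are printed from RefSeq (GRCh38.p14), on the strand of the H2B gene. Capitals mark the octamer ATGCAAAT, the site of the OCT1 factor in H2B promoters, the CCAAT box and the letters TATAAA, each on either strand.
HIST2H2BE and HIST2H2AC, chr1:149886683-149886917, minus strand: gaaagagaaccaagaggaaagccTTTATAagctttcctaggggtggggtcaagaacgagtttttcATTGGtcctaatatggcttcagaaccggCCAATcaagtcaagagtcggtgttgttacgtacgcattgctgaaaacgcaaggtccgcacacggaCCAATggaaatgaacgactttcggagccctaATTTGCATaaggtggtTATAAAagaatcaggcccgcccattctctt
HIST1H2BJ and HIST1H2AG, chr6:27132796-27133042, minus strand: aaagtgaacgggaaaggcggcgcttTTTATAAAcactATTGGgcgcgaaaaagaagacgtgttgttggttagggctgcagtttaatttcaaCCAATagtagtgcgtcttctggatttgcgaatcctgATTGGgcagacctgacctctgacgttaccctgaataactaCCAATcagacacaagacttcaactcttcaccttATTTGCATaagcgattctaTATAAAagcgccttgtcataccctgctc
HIST1H2BK, chr6:27146859-27147108, minus strand: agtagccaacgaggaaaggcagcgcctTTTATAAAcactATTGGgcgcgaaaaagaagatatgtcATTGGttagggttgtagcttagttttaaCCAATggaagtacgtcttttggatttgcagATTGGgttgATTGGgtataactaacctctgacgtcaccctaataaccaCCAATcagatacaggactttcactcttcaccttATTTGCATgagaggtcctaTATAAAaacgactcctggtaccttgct

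The octamer lies 38 bases before the start of HIST2H2BE, 39 before HIST1H2BJ and 38 before HIST1H2BK. From the starts of HIST2H2AC and HIST1H2AG, on the other side of the shared stretches, it is 189 and 200 bases away. RefSeq windows of 300 bases around the start were matched for 9 of 10 members, all but HIST1H4C. The octamer is in 6 of these 9, where members of a pair share 1 octamer, against 1.76% of 34796 windows of the same length. The CCAAT box (CCAAT or ATTGG) is in 8 of 9, against 34.6% of all windows, and TATAAA or TTTATA in 7 of 9, against 11.6%. CACGTG, the letters of the E-box that MYC binds, are in 0 of 9 and in 7.20% of all windows, which says only that these letters are not in these windows. Among 8 matched histone genes outside the members, 2 held the octamer, 7 the CCAAT box, 4 the TATAAA letters and 0 the E-box. These windows are not independent. The octamer of HIST1H2BC is that of its partner HIST1H2AC, already counted among the members. The windows of HIST1H2BL and HIST1H2AI, and of HIST3H2A and HIST3H2BB, overlap for most of their length. CCAAT and TATAAA letters that partners share, also within the members, are counted for both.

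The doxycycline samples held more reads of most of these genes. Summed over the 10 members, the level was 46.8 to 53.7 CPM (counts scaled to each library's total, with TMM factors) in the DMSO samples and 72.7 to 80.8 CPM in the doxycycline samples. HIST1H2BK gave 42.9 to 47.0% of the members' counts, and without it the sums were 24.8 to 30.3 and 41.5 to 44.8 CPM. By edgeR's quasi-likelihood test over all 15492 tested genes (adjusted p under 0.05), 7 of 10 members were called higher and 1 lower, where 13.8% and 15.5% of all tested genes were called (29.3% in either direction). The groups did not overlap for 6 members that were higher and 1 that was lower, against 20.7% and 21.0% of all tested genes. Since the members were chosen with this comparison in view, nothing is read from those counts. Their median log2 fold change was 0.58, and that of all tested genes was -0.00072. In the authors' deposited table the log2 fold changes of the 10 members had the same signs and ran from -0.66 for HIST2H2AC to 1.04 for HIST2H2BE.

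**Figure D1:**
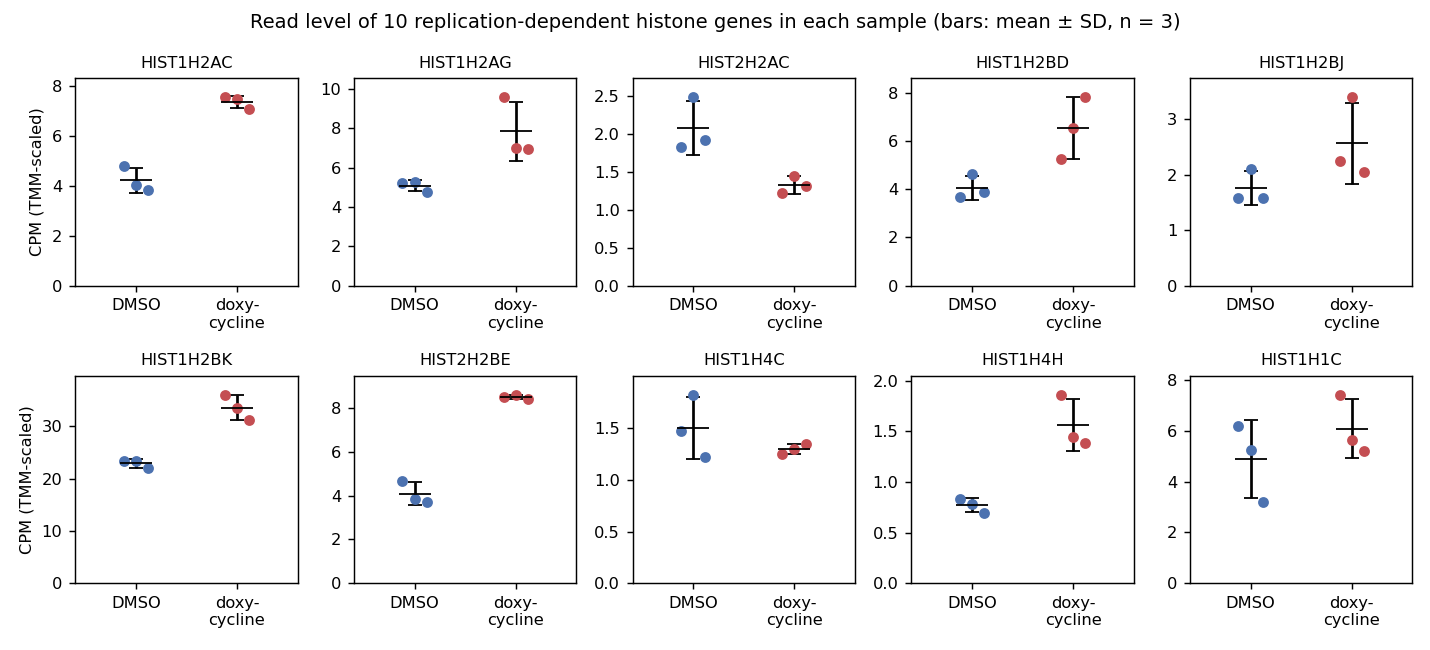
Level of each of the 10 genes in each sample, in TMM-scaled CPM on axes that start at 0, for 3 DMSO samples (blue) and 3 doxycycline samples (red), with the mean and SD as black bars. The groups do not overlap for 6 genes that are higher with doxycycline and for HIST2H2AC, which is lower, while HIST1H2BJ, HIST1H1C and HIST1H4C overlap.

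Among the H2A genes, HIST1H2AC (ENSG00000180573) had 4.80, 4.05 and 3.84 CPM in the DMSO samples and 7.55, 7.47 and 7.10 CPM in the doxycycline samples, both listed from replicate 1 to 3 here and below, from 88 to 199 counts per sample. All doxycycline samples lay above all DMSO samples and close together. The means were 4.23 ± 0.504 and 7.38 ± 0.241 CPM (SD, n = 3 each), and the log2 fold change was 0.80 (standard error, SE, 0.117). HIST1H2AG (ENSG00000196787) stood at 5.20, 5.29 and 4.76 CPM in the DMSO samples and at 9.56, 7.01 and 6.91 CPM in the doxycycline samples. Doxycycline replicate 1 was well above the other two, and all 3 were above every DMSO sample. Its log2 fold change was 0.62 (SE 0.126). HIST2H2AC (ENSG00000184260) went the other way, with 1.82, 2.48 and 1.92 CPM in the DMSO samples and 1.21, 1.45 and 1.31 CPM in the doxycycline samples. The groups did not overlap, from 32 to 60 counts per sample, and the log2 fold change was -0.65 (SE 0.203). HIST2H2AC lost its call without DMSO replicate 2 (-0.50), doxycycline replicate 1 (-0.59) or doxycycline replicate 3 (-0.64), and with DESeq2. Of its 100-base stretches, 17.2% also occur in transcripts of HIST2H2AA3 or HIST2H2AA4, near-identical H2A genes, so its count is uncertain.

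All 4 H2B members had a higher mean in the doxycycline samples. HIST1H2BK (ENSG00000197903) had 23.4, 23.5 and 22.0 CPM in the DMSO samples and 36.0, 33.4 and 31.2 CPM in the doxycycline samples, from 503 to 948 counts. The groups were well apart, and the log2 fold change was 0.55 with the smallest error of the 10 members (SE 0.068). H2BFS, a gene with near-identical sequence, shares 28.4% of its 100-base stretches, so reads may have been split between them. HIST2H2BE (ENSG00000184678) stood at 4.68, 3.84 and 3.71 CPM in the DMSO samples and at 8.46, 8.58 and 8.41 CPM in the doxycycline samples. The doxycycline samples were nearly equal and far above DMSO, at 4.08 ± 0.526 against 8.48 ± 0.0858 CPM (SD, n = 3 each). This was the largest change among the 10, a log2 fold change of 1.05 (SE 0.114), or 2.07-fold.

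HIST1H2BD (ENSG00000158373) stood at 3.69, 4.63 and 3.89 CPM in the DMSO samples and at 5.24, 6.56 and 7.81 CPM in the doxycycline samples. The doxycycline samples were spread widely but did not reach down to the DMSO range, and the log2 fold change was 0.68 (SE 0.140). HIST1H2BJ (ENSG00000124635) stood at 1.59, 2.11 and 1.57 CPM in the DMSO samples and at 2.24, 3.39 and 2.06 CPM in the doxycycline samples. Its groups overlapped, since doxycycline replicate 3 was below DMSO replicate 2, and the log2 fold change of 0.54 (SE 0.205) rested largely on doxycycline replicate 2. HIST1H2BJ was called higher, but not without doxycycline replicate 2 (0.29), DMSO replicate 1 (0.47) or DMSO replicate 3 (0.47), nor with DESeq2. The coding parts of the 4 H2B members are 89.2 to 92.1% identical, yet no 100-base stretch of HIST1H2BD or HIST1H2BJ occurs in another gene's transcript.

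The H4 members, whose coding parts are 81.4% identical, differed from each other in direction. HIST1H4H (ENSG00000158406) stood at 0.833, 0.785 and 0.699 CPM in the DMSO samples and at 1.86, 1.45 and 1.38 CPM in the doxycycline samples. No sample overlapped, from 16 to 49 counts, and the log2 fold change was 1.01 (SE 0.243). HIST1H4C (ENSG00000197061) stood at 1.47, 1.82 and 1.22 CPM in the DMSO samples and at 1.25, 1.30 and 1.35 CPM in the doxycycline samples. The doxycycline samples fell inside the DMSO range, and a log2 fold change of -0.21 (SE 0.218) was no larger than its error at 28 to 44 counts per sample. It was -0.058 without DMSO replicate 2 and -0.34 without DMSO replicate 3. HIST1H1C (ENSG00000187837), the linker histone that binds where DNA enters the nucleosome, stood at 6.19, 5.25 and 3.19 CPM in the DMSO samples and at 7.40, 5.64 and 5.20 CPM in the doxycycline samples. Doxycycline replicates 2 and 3 lay within the DMSO range, and the log2 fold change of 0.31 (SE 0.163) was not called. HIST1H1C moved with single samples: it was 0.084 without DMSO replicate 3, 0.14 without doxycycline replicate 1, and 0.52 and called higher without DMSO replicate 1.

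The head-to-head pairs behaved unlike each other. The ratio of HIST2H2BE to HIST2H2AC was 2.57, 1.55 and 1.93 in the DMSO samples and 6.97, 5.92 and 6.43 in the doxycycline samples. The ratio was higher in every doxycycline sample, with a difference in mean log2 ratio of 1.70, with the H2B partner higher and the H2A partner lower. HIST2H2AC had 32 to 60 counts per sample and shares 17.2% of its 100-base stretches with HIST2H2AA3 or HIST2H2AA4, so this ratio is uncertain. The ratio of HIST1H2BJ to HIST1H2AG was 0.305 to 0.398 in the DMSO samples and 0.234 to 0.484 in the doxycycline samples. The doxycycline range enclosed the DMSO range, with a difference of -0.085, and both partners were higher. HIST1H2AC is paired with HIST1H2BC, which is not a member and had few counts. Their ratio was 4.0 to 12.1 in the DMSO samples and 7.96 to 10.6 in the doxycycline samples, a difference of 0.60 within overlapping ranges. Outside the members, the ratio of HIST1H2BL to HIST1H2AI was 1.50 to 2.58 in the DMSO samples and 0.381 to 1.0 in the doxycycline samples. That difference of -1.86 gave an exact two-sided permutation p of 0.1, the smallest that 3 against 3 samples allow. HIST1H2AI shares 57.7% of its 100-base stretches with HIST1H2AJ, so its count and this ratio are uncertain. For HIST3H2A and HIST3H2BB the ratio was 11.2 to 69.5 in the DMSO samples and 15.1 to 17.3 in the doxycycline samples, which overlap.

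**Figure D2:**
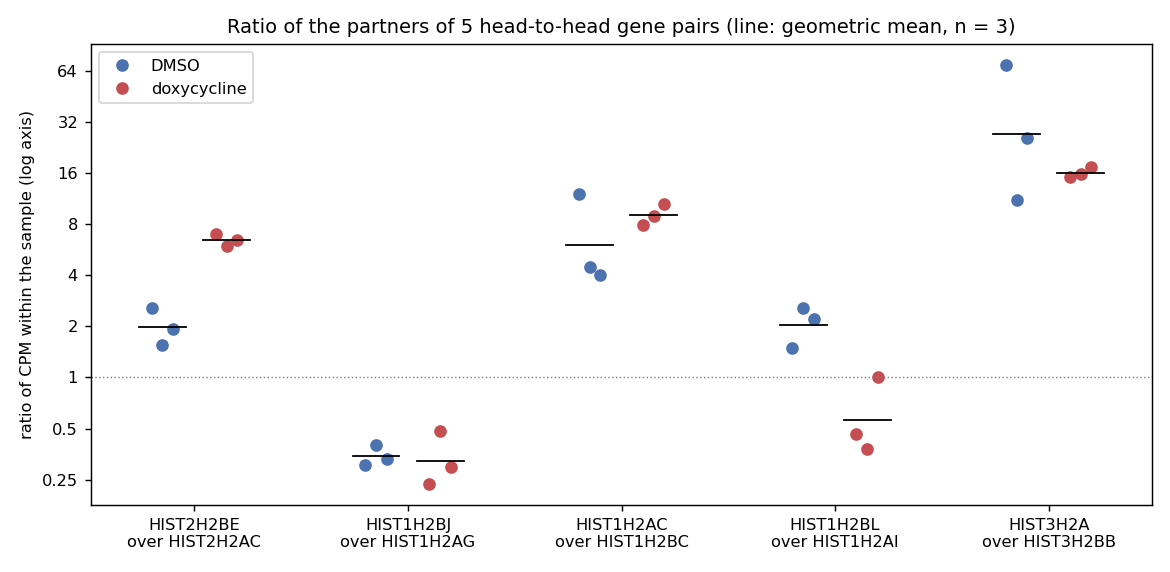
Ratio of the partners' levels within each sample for 5 head-to-head histone pairs, on a log axis, with DMSO samples in blue, doxycycline samples in red and the geometric mean of 3 samples as a line. The ratio of HIST2H2BE to HIST2H2AC is 1.55 to 2.57 with DMSO and 5.92 to 6.97 with doxycycline, and that of HIST1H2BL to HIST1H2AI moves the other way.

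Of the other 79 replication-dependent histone symbols, 58 had counts and 20 were tested. In these 20, 4 genes rose and 1 fell, where 13.8% and 15.5% of all tested genes were called. Nothing is read from the number of calls. Of the 20, 18 had a log2 fold change above 0, with a median of 0.35, where 49.9% of all tested genes were above 0. The summed level over all 79 symbols was 24.2 to 25.3 CPM in the DMSO samples and 31.0 to 32.6 CPM in the doxycycline samples, so the members held 65.9 to 71.4% of the counts of the class. HIST3H2A, an H2A gene on chromosome 1, rose from 5.03 ± 0.510 to 7.05 ± 0.868 CPM (SD, n = 3 each), with a log2 fold change of 0.48 (SE 0.120, edgeR adjusted p = 0.0035). It kept its call in every alternative run. The H2B gene HIST1H2BL fell from 1.07, 1.28 and 1.44 CPM in the DMSO samples to 0.493, 0.305 and 0.523 CPM in the doxycycline samples. The samples did not overlap, and its log2 fold change was -1.50 (SE 0.292, edgeR adjusted p = 0.00041). It rested on low counts, 8 to 33 per sample. With 8 counts in doxycycline replicate 2, HIST1H2BL was not tested where at least 10 counts were required in every sample.

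The other 3 calls were also at low counts. HIST1H2BN rose by 0.68 (SE 0.232, edgeR adjusted p = 0.0282), HIST2H2BC by 0.74 (SE 0.283, edgeR adjusted p = 0.0493) and HIST4H4, an H4 gene outside the large clusters, by 1.12 (SE 0.401, edgeR adjusted p = 0.0359). The HIST4H4 groups overlapped, and its call was lost without DMSO replicate 2 (0.91) or 3 (0.95) or doxycycline replicate 2 (0.97) or 3 (0.95). HIST1H2BN lost its call without any 1 of DMSO replicates 1, 2 and 3 (0.72, 0.66 and 0.66) or doxycycline replicates 2 and 3 (0.52 and 0.70). HIST2H2BC lost it without any 1 of DMSO replicates 1, 2 and 3 (0.72, 0.66 and 0.84) or doxycycline replicates 1 and 3 (0.66 and 0.67). HIST1H2BN and HIST2H2BC were not called by DESeq2, which gave HIST4H4 no adjusted p, and HIST2H2BC also lost its call when low counts were not filtered (0.73) and in the fit with the replicate block (0.74). In the annotation HIST1H2BN overlaps exons of HIST1H2AL and HIST1H2AK, and HIST2H2BC lies opposite HIST2H2BD, so their counts are uncertain.

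The remaining 15 tested histone genes did not pass. HIST3H2BB had the highest log2 fold change among them at 0.89, and the other H2B genes were HIST1H2BG at 0.72, HIST3H2BA at 0.55, HIST2H2BD at 0.43, HIST1H2BH at 0.33 and HIST1H2BC at 0.13. The H2A genes were HIST1H2AI at 0.35, HIST1H2AE at 0.16 and HIST1H2AJ at -0.24. The H3 genes were HIST1H3D at 0.53, HIST1H3H at 0.34, HIST1H3G at 0.34 and HIST1H3J at 0.14, and the H4 genes were HIST1H4I at 0.31 and HIST1H4E at 0.30. HIST2H2BD and HIST3H2BA are listed as pseudogenes under their current symbols, H2BC19P and H2BC27P. No current symbol was matched for HIST2H2BC, called higher above, or for several other tested histone genes, so this was not checked for them. HIST3H2BB passed as higher without DMSO replicate 2 (1.78), HIST1H2BG without DMSO replicate 3 (1.12) and HIST3H2BA without doxycycline replicate 1 (0.84). Signs turned for HIST1H2BC without DMSO replicate 1 (-0.19), HIST1H3J without DMSO replicate 3 (-0.20) and HIST1H2AJ without DMSO replicate 2 (0.20), and HIST1H2AI was 0.087 without doxycycline replicate 1.

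**Figure D3:**
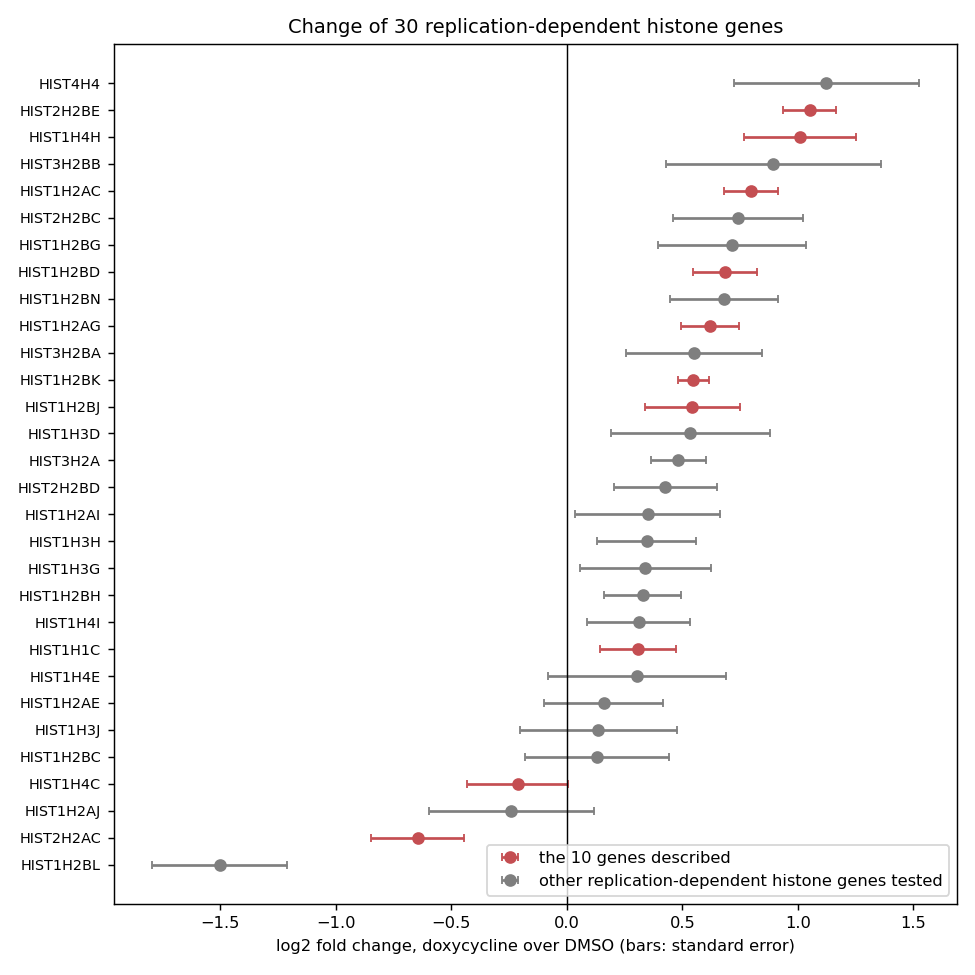
Log2 fold change of doxycycline over DMSO with its standard error for the 30 tested replication-dependent histone genes, the 10 described genes in red and the other 20 in grey. Of the red points 8 lie above 0, with HIST2H2BE highest at 1.05 and HIST2H2AC lowest at -0.65, and of the grey points 18 lie above 0, with HIST1H2BL lowest at -1.50.

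The members were also set against the bases by which their annotation exceeds the coding part. Annotation was the longer of the longest GENCODE 29 transcript and the RefSeq gene span, so the excess also holds 5′ parts and introns. It does not measure RNA behind the coding part. The coding part was the longest open frame. For HIST1H2BN (501 bases), HIST2H2BD (495) and HIST4H4 (453) that frame is longer than in the members of their class. This grouping was chosen after the values were seen and is a description. In 7 members the annotation exceeds the coding part by over 250 bases, from 569 for HIST1H2BJ and 1275 for HIST1H2AC to 8185 for HIST1H2BK and 12848 for HIST1H2BD. These 7 are the members called higher, at log2 fold changes of 0.54 to 1.05 with a median of 0.68. Members and grouping were both chosen with the values known, so nothing is read from that match. The 3 with short annotation are HIST2H2AC (104 bases, -0.65), HIST1H4C (123 bases, -0.21) and HIST1H1C (89 bases, 0.31). Neither annotation alone gives this split. By GENCODE 29 alone HIST1H2BK would be short, with a transcript of 381 bases that is all coding. By the RefSeq span alone HIST1H2AG (493 bases), HIST1H4H (409), HIST1H2BJ (480) and HIST1H2AC (519) would be short. Of the other tested histone genes, 7 with long annotation were all above 0, with a median of 0.53, and 4 with short annotation had a median of 0.24, of which 3 were above 0 and HIST1H2BL was below. Of the 7, HIST1H2BC was at -0.19 without DMSO replicate 1, and the counts of HIST1H3D and HIST2H2BD are uncertain, since 100% and 69.1% of their 100-base stretches occur in AL031777.3 and HIST2H2BC. For 9 no annotation was matched, and 8 of them were above 0. Genes outside the members were thus mostly above 0 whatever their annotation. Length differs between these groups by their definition, and a longer RNA collects more reads at the same number of molecules, so levels are not compared between genes here.

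**Figure D4:**
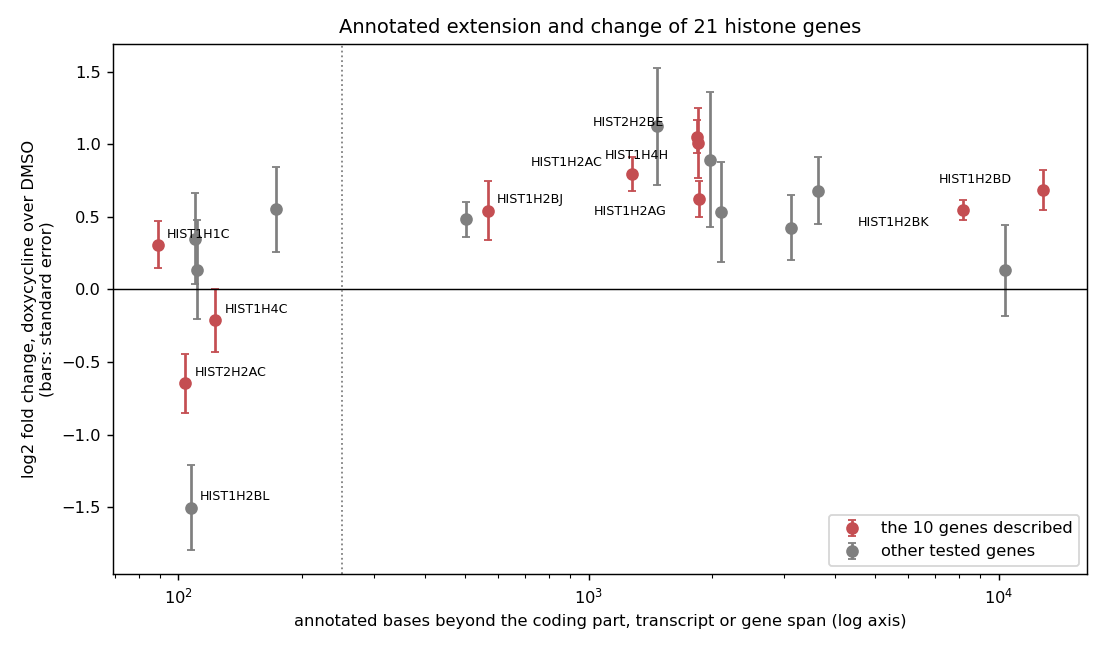
Log2 fold change with its standard error for 21 tested histone genes with a matched annotation. The log axis gives the annotated bases in excess of the coding part, 5′ parts and introns included. The 10 described genes are in red and named, others in grey, and the dotted line is at 250 bases. All 14 genes to the right of the line are above 0, and of the 7 to the left HIST2H2AC, HIST1H4C and HIST1H2BL are below 0. The grouping was chosen after the values were seen. Of 9 tested genes without a matched annotation, not shown, 8 are above 0.

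Of 24 tested genes of histone transcription and 3′ end processing, 1 rose and 10 fell, with a median log2 fold change of -0.12. Over all tested genes 13.8% were called higher and 15.5% lower, the shares to set beside this list and those below. With an offset for GC content and length, 7 fell. Over all genes that offset called 1619 of 15036 higher and 1711 lower. The falls with the smallest p were SNRPE (-0.47, edgeR adjusted p = 4.0e-07), SNRPG (-0.46, adjusted p = 5.2e-06) and SNRPD3 (-0.30, adjusted p = 6.6e-05), Sm proteins found in spliceosomal and U7 particles. SNRPE and SNRPG were smaller with the offset, at -0.29 and -0.20, and kept their calls. The rise was SYMPK, a scaffold of the cleavage complex, at 0.16 (edgeR adjusted p = 0.0142), which was at 0.00064 and not called with the offset and was also lost without DMSO replicate 1 (0.16) or 3 (0.13). SLBP and NPAT were named after their values were seen, for their roles as the stem-loop binding protein and the S phase co-activator of histone genes. SLBP stood at 132 ± 2.48 and 122 ± 1.36 CPM (edgeR adjusted p = 0.0789) and NPAT at 60.3 ± 3.31 and 58.8 ± 1.36 CPM (edgeR adjusted p = 0.676; SD, n = 3 each), and neither passed.

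Histone mRNA decay had 1 rise and 6 falls among 17 tested genes, with a median of -0.13. SMG1, a kinase that acts on UPF1, rose by 0.22 (edgeR adjusted p = 0.0059), or 0.15 with the GC and length offset. The leading falls were LSM3 and LSM5, subunits of the LSM ring that binds RNA ends, at -0.43 (edgeR adjusted p = 1.2e-06) and -0.35 (adjusted p = 0.00053), and PNPT1, a polynucleotide phosphorylase, at -0.39 (adjusted p = 3.4e-05). LSM5 was at -0.12 with the offset and lost its call. Of 17 polyadenylation genes, 0 rose and 4 fell, with a median of -0.094 and 7 at an unadjusted p under 0.05. They were PAPOLA, the poly(A) polymerase (-0.21), FIP1L1 (-0.17), and NUDT21 (-0.24) and CPSF6 (-0.17), which form the factor that helps choose between poly(A) sites. All 4 lost their call with the offset, under which 1 gene of the list fell. FIP1L1 also lost it without DMSO replicate 2 (-0.11), doxycycline replicate 1 (-0.15) or 3 (-0.18), and CPSF6 without DMSO replicate 3 (-0.093), doxycycline replicate 1 (-0.17) or 3 (-0.16).

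Of 21 histone chaperone genes 1 rose and 8 fell, with a median of -0.042 that was 0.0059 with upper-quartile scaling. HAT1, which acetylates new H4, fell by 0.35 on the log2 scale (edgeR adjusted p = 0.00012), NAP1L1, an H2A-H2B chaperone, by 0.29 (adjusted p = 0.00038) and SUPT16H, of the FACT complex, by 0.25 (adjusted p = 0.00048). With the GC and length offset HAT1 was at -0.22. CABIN1 was called higher at 0.15 but stood at -0.065 with the GC and length offset, and lost its call without DMSO replicate 3 (0.12) or doxycycline replicates 1 (0.12) or 3 (0.16). Of 10 tested replication-independent variants, most of which are also made outside S phase from polyadenylated mRNA, 1 rose and 3 fell. H1F0, the H1 variant of non-dividing cells, rose from 53.0 ± 1.62 to 68.3 ± 4.62 CPM (log2 fold change 0.37, edgeR adjusted p = 4.6e-05), and H3F3A, a gene of H3.3, fell from 609 ± 71.1 to 437 ± 37.5 CPM (-0.48, adjusted p = 1.2e-05; SD, n = 3 each). H2AFZ fell by 0.28 (edgeR adjusted p = 0.00030) and H3F3B by 0.21 (adjusted p = 0.0028). With the GC and length offset H3F3A was at -0.27 and H2AFZ at -0.18, both still called.

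Of 25 S phase genes 3 rose and 14 fell, with a median of -0.15. Any link to the members' change was not tested. The leading falls were RFC3, of the clamp loader, by 0.40 (edgeR adjusted p = 2.9e-05), GINS1, of the replicative helicase, by 0.35 (adjusted p = 8.8e-05) and RRM1, of ribonucleotide reductase, by 0.27 (adjusted p = 0.00015). With the GC and length offset 10 of 24 fell, and RFC3, GINS1 and RRM1, still called, were at -0.20, -0.21 and -0.16. CDT1 (0.18), MCM5 (0.15) and POLE (0.14) were called higher, and all 3 lost the call with the GC and length offset, where POLE stood at -0.036. They also lost it without doxycycline replicate 1, at 0.16, 0.12 and 0.11. CDT1 lost it without DMSO replicate 1 (0.16), MCM5 without doxycycline replicate 3 (0.15), and POLE without DMSO replicates 1 (0.14) or 3 (0.12) or doxycycline replicate 3 (0.14). POLE was also lost with the replicate block (0.14), and MCM5 (0.13) and POLE (0.12) when low counts were not filtered.

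**Figure D5:**
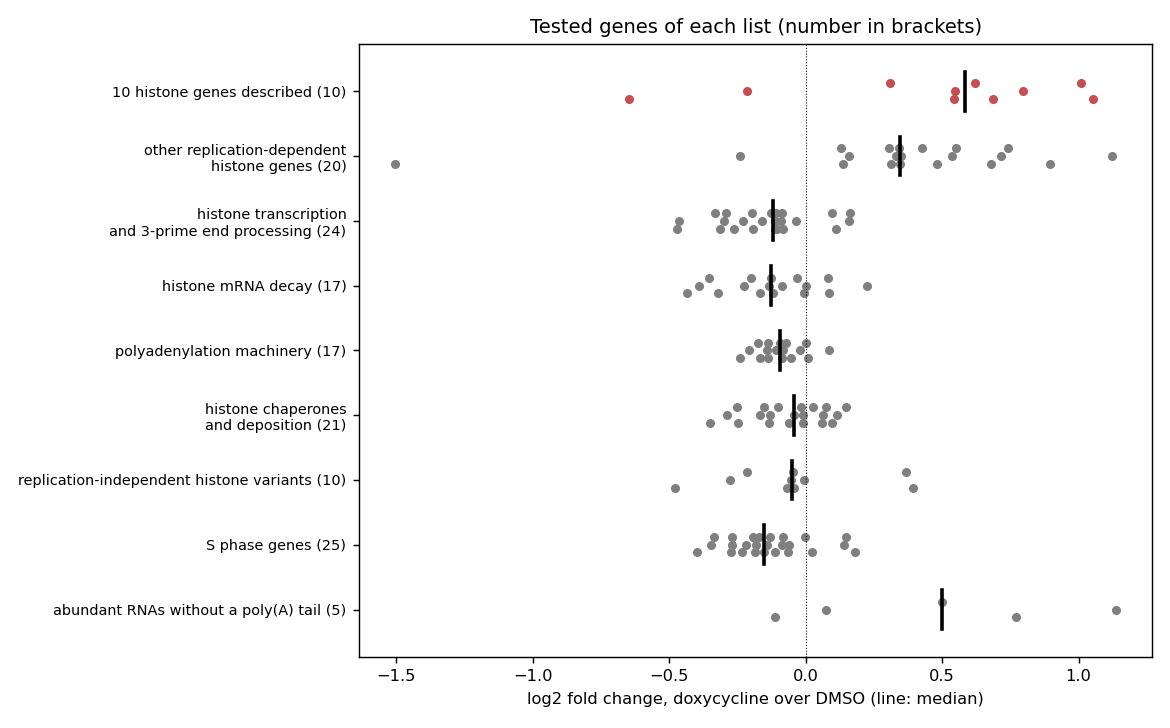
Log2 fold change of each tested gene in each list, with the number of genes in brackets and the median as a black line, the 10 described genes in red. The medians are 0.58 for the described genes and 0.35 for the other replication-dependent histone genes, against -0.15 for S phase genes and -0.12 for histone transcription and 3′ end processing.

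Some measures of the libraries moved with the members, and their part in the members' change was not tested. Of 20 abundant RNAs without a poly(A) tail, 15 had counts and 5 were tested, and 3 rose: RN7SK from 3.25 ± 1.22 to 5.61 ± 1.53 CPM with overlapping groups (0.77), RPPH1 (0.50) and SNORD3A (1.14). RN7SK and RPPH1 were not called by DESeq2, which gave SNORD3A no adjusted p. RPPH1 lost its call without DMSO replicate 1 (0.48) or 2 (0.46) or doxycycline replicate 1 (0.43), and SNORD3A without DMSO replicate 2 (1.07) or 3 (1.02) or doxycycline replicate 2 (1.08) or 3 (0.83). Genes with any count numbered 23188 to 23310 in the DMSO samples and 23932 to 24573 in the doxycycline samples, whose total counts were also higher (25819386 to 26214598, against 23121255 to 25412493). The share of higher calls rested on scaling, with 2137 higher and 2408 lower genes under TMM and 2871 and 1585 under upper-quartile scaling, but no member changed sign under any scaling. MYC, the targeted gene, was not lower in the doxycycline samples: 409, 422 and 407 CPM against 459, 431 and 431 CPM, a log2 difference of 0.09 (SE 0.049, edgeR adjusted p = 0.160) that passed as higher under upper-quartile and under library-size scaling (0.14 in both). A cut site repaired with a few bases gained or lost would still let reads be counted, so this checks the labels in part only.

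T cell markers were present for 9 of 10 genes, with TRBC1 at 0, and summed to 3097 to 3297 CPM in the DMSO samples and 3157 to 3254 CPM in the doxycycline samples. Of the 4 B cell markers 3 had counts, with MS4A1 at 0, and the sum was 4.67 to 6.42 CPM against 9.61 to 11.4 CPM. The 4 myeloid markers summed to 0.909 to 1.19 against 1.64 to 1.97 CPM, and 2 of 3 fibroblast markers, with COL1A2 at 0, to 40.3 to 40.7 against 48.0 to 53.5 CPM. Of the 3 epithelial markers 1 had counts, with EPCAM and KRT18 at 0, and the sum was at most 0.0793 CPM in any sample. The part of such cells in the histone levels was not tested, and fewer cells of a type and less RNA per cell cannot be told apart in bulk samples.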

How the data were processed

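RNA-seq of 3 DMSO and 3 doxycycline samples was used, grouped by title. The authors deposited raw counts per gene. The tools STAR 2.5.2a, featureCounts and DESeq2 1.12.4 and the build hg19 are named per the submitters' processing notes, without roles. Annotation, strand setting and the treatment of reads that match several genes are not given in the sources used here. Besides counts, the authors deposited a DESeq2 table of normalized signal, log2 fold change and its error, Wald score and p-values, of which only the log2 fold changes are printed.

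Total counts were 23121255 to 26214598 per sample. Genes passing filterByExpr (15492 of 63677) were scaled with TMM and compared with edgeR 4.0.16 (quasi-likelihood test, R 4.3.3, Benjamini-Hochberg over all tested genes, threshold 0.05), a procedure tested on simulated data. The SE is the log2 fold change divided by the root of the F statistic. Alternatives were other scalings and filters, DESeq2 1.42.0, a replicate block, leaving out each sample, and an offset for GC content and length from GENCODE 29 (natural splines with 5 degrees of freedom).

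The members and lists were chosen with earlier results of these data known. Named are all members, all other tested replication-dependent histone genes, MYC and, of each list, every called gene where 5 or fewer were called, else the 3 with the smallest p in each direction. Same-numbered samples did not deviate together (correlations of -0.056, -0.22 and 0.088), so the numbers were not taken as pairs. GENCODE 29 is of GRCh38, so its coordinates are not printed. Stem-loops, signals and 100-base stretches were searched in its transcripts. One list of markers of another cell type is not reported here.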

Additional observations from a re-analysis of the deposited data

How the results depend on the processing

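All 10 members kept the sign of their log2 fold change in all 15 alternatives. The count of members called was 8, and 6 with DESeq2, 9 with the GC and length offset and replicate block, 8 with the replicate block alone and 7 to 8 when 1 sample was left out. Over all genes 29.3% were called in the main fit and 25.1% of those given an adjusted p by DESeq2. The share was 21.1% with the offset and block, 27.1% with the block alone and 21.3 to 27.4% when 1 sample was left out. It was 30.7% where at least 10 counts were required in every sample. Nothing is read from the counts of calls. The count of other replication-dependent histone genes called was 5. It was 3 where at least 10 counts were required in every sample, which left 12 genes, 2 with DESeq2, 4 with the replicate block and 2 to 5 when 1 sample was left out, with 3 without DMSO replicate 1, 2 or 3 or doxycycline replicate 2 and 2 without doxycycline replicate 3. Over all genes the replicate block called 4206 against 4545. With the GC and length offset, the log2 fold changes of 5 list genes called in the main fit or with the offset turned negative. Turns of genes called in neither were not counted. Without and with the replicate block, UPF1 turned to -0.18 and -0.18, CABIN1 to -0.065 and -0.065, TONSL to -0.13 and -0.13, POLE to -0.036 and -0.035, and POLD1 to -0.16 and -0.16. A true change along GC content or length would be removed too, and the cause of these turns was not tested.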
